A study of Homo sapiens with 6 samples.

Results

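The genes described here encode the proteasome of human keratinocytes: the barrel that cuts proteins, the cap that selects and unfolds them, the activators and the inhibitor that bind the barrel, and the chaperones that help to assemble both. They were taken by symbol, as every gene with a read count in all 6 libraries whose name is PSM followed by a letter from A to G and a digit, pseudogenes left out. The rule found 49 of the 19493 genes with a count. PSMC3IP, a partner of the meiotic recombinases, and PSME3IP1, a protein that binds an activator, match by name alone and were set apart, which left 47 genes. These are 8 genes of the alpha ring, 6 of the constitutive beta ring, 3 immunoproteasome subunits (PSMB8, PSMB9 and PSMB10), the thymus subunit PSMB11, 6 ATPases and 11 other subunits of the regulatory particle, 3 of its assembly chaperones, 4 activators with 1 inhibitor, and 4 chaperones of the core. PSMB3 was not analysed here.

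The proteasome is the main protease of the cytosol and nucleus. Its core, the 20S particle, is a stack of rings in which the outer alpha rings form a gate and the inner beta rings carry the cutting sites. Under interferon and other inflammatory signals the 3 constitutive cutting subunits are replaced by the immunoproteasome subunits, which changes the peptides made and so the peptides that can be loaded on class I molecules. The regulatory particle, or 19S cap, binds ubiquitin chains, removes them and threads the substrate through a ring of ATPases into the core. In keratinocytes the proteasome also sets the level of p53 and of other proteins that respond to ultraviolet light.

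The libraries came from HaCaT, an immortalised line of human keratinocytes, and every library, the controls included, came from cells that express the photolyase of the marsupial Potorous tridactylus, an enzyme that uses light to undo cyclobutane pyrimidine dimers. The first group of 2 libraries received UVC at 15 J/m2 and 254 nm and then 2 h of white light, which activates the enzyme. The second group of 2 received the same UVC dose with the enzyme inactive. Both irradiated groups were harvested at 6 h after UVC. The control group of 2 was not irradiated and its enzyme was inactive. The labels name neither the promoter that drives the enzyme nor whether the line is a clone. White light was given to the first group alone, so light and active photolyase cannot be told apart. Nothing in the labels ties the 2 libraries of a group to independent cultures; the p-values thus rest on library-to-library spread that could be purely technical. The libraries held 57669389 to 70005705 counts, and the 10 keratinocyte markers looked for were all above the test filter.

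Promoters are shown first for the genes on which the results turn: the immunoproteasome subunits, the activator subunit PSME2, the alpha subunit PSMA4 and the regulatory subunit PSMD12. Each line gives the 250 bases before the RefSeq start of the gene, read 5′ to 3′ on the gene's own strand in GRCh38.p14. They lie at chr6:32844680-32844929 (minus strand), chr6:32853942-32854191 (plus), chr16:67936851-67937100 (minus), chr14:24146611-24146860 (minus), chr15:78540155-78540404 (plus) and chr17:67366578-67366827 (minus). Capitals mark matches on either strand to the core of an interferon response element, GAAA followed by any 2 bases and GAAA again, and to TGACNNNGC, the core of an antioxidant response element, the kind of element read by NFE2L1.
PSMB8: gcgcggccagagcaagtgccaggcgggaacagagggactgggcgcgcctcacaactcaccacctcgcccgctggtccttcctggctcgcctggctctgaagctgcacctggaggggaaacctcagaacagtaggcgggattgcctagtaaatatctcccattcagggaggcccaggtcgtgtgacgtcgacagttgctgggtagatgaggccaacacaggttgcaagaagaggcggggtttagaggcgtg
PSMB9: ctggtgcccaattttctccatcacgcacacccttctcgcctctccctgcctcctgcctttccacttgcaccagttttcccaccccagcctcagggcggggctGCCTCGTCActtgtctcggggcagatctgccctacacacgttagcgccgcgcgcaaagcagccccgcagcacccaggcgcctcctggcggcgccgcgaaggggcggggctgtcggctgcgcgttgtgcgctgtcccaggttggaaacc
PSMB10: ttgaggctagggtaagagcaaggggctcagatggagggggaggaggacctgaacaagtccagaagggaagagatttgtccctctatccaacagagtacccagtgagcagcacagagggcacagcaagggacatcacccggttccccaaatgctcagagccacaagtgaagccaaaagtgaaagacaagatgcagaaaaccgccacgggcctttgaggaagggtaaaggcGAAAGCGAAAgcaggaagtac
PSME2: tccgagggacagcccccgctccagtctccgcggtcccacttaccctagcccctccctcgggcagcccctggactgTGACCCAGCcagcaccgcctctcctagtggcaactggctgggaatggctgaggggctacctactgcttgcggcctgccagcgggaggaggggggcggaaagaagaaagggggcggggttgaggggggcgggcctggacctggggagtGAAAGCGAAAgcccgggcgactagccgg
PSMA4: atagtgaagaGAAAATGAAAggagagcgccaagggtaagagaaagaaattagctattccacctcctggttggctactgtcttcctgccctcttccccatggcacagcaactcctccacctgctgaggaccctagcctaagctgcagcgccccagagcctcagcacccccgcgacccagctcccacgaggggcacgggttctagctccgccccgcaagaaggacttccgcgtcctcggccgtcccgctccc
PSMD12: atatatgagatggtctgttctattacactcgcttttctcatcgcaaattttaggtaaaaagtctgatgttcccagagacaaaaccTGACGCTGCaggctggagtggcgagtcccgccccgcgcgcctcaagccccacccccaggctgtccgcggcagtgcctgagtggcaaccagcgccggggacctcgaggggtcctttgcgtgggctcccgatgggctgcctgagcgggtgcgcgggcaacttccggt

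A RefSeq promoter window, from 250 bases before to 50 bases after the start, was found for 41 of the 47 genes, the exceptions being PSMA7, PSMB1, PSMB6, PSMB7, PSMD4 and PSMG3. The interferon core was found in 6 of the 41 windows (14.6%), against 3.65% of the 27305 windows of the whole table. The 6 were those of PSMA4, PSMB4, PSMB10, PSME1, PSME2 and PSMG4, and in PSME1 the match lies after the start. TGACNNNGC was found in 12 windows (29.3%, against 13.6%), and CCAAT, the box bound by NF-Y, in 18 (43.9%, against 35.7%). The window printed for PSMB8 holds neither marked motif, which says only that these letters are not in it.

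Of the 47 genes, 45 reached 1 cRPKM in at least 2 libraries and were tested. cRPKM is the deposited level, reads per length of gene and per sequencing depth, and a scaled cRPKM is that value divided by the trimmed-mean (TMM) factor of its library. PSMA8, the alpha subunit of germ cells, had 0 or 1 read in each library, and PSMB11 had 2 to 4. In UVC against control, 13 proteasome genes were called higher and 24 lower by edgeR's quasi-likelihood test at an adjusted p under 0.05 over 11926 genes, and 8 were not called. Among all tested genes 85.6% were called, 42.5% higher and 43.1% lower. The proteasome genes moved less far than most: their median log2 fold change was -0.14 with an interquartile range of 0.64, against 1.29 over all tested genes. Only 3 of the 45, PSMD12, PSME4 and PSMC6, fell by 2-fold or more, against 2222 of 11926 genes.

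In UVC with active photolyase against UVC, 19 proteasome genes were higher and 11 lower, with 79.1% of all tested genes called, 39.2% higher and 39.9% lower. In UVC with active photolyase against control, 11 were higher and 13 lower, with 65.8% of all tested genes called, 33% higher and 32.9% lower. Both comparisons use the same libraries with active photolyase, and each shares its other libraries with the first comparison. In all 3 comparisons the 2 libraries of a group lay wholly above or below those of the other group for every proteasome gene called. Overlap was not counted over all called genes, so this adds no support to the calls.

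The directions are relative to the bulk of the genes. Without TMM factors, by library totals alone, the median of all tested genes moved to 0.42 in UVC against control, -0.34 in UVC with active photolyase against UVC and 0.12 in UVC with active photolyase against control. On that scale the shares of all tested genes called higher and lower were 59.5% and 29.7%, 27.8% and 58.3%, and 43.9% and 23.8%. All 13 rises under UVC were also called by library totals, but only 6 of the 24 falls were (PSMC6, PSMD11, PSMD12, PSME3, PSME4 and PSMG2), 10 were not called and 8 were called higher. Likewise, all 11 genes lower with active photolyase than with UVC alone were called lower by library totals, against 6 of the 19 higher ones (PSMC6, PSMD2, PSMD11, PSMD12, PSME3 and PSME4), of which 9 were not called and 4 were called lower. In bulk RNA, fewer cells of a type and less RNA per cell cannot be told apart.

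**Figure D1:**
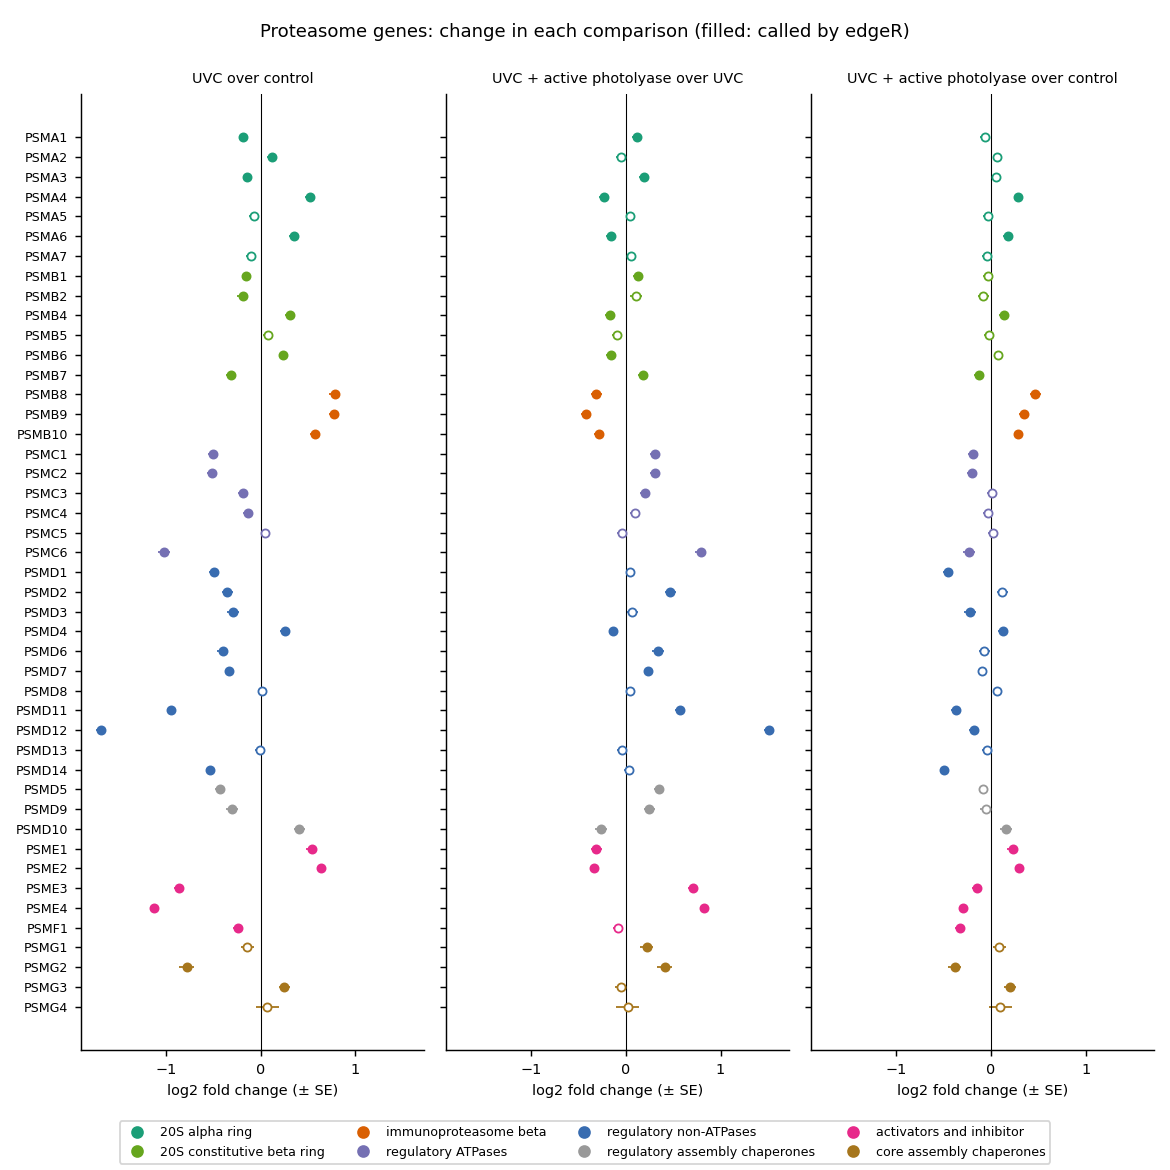
Log2 fold change of each of the 45 tested proteasome genes in the 3 comparisons, one row per gene and coloured by its role; bars are standard errors and filled points were called by edgeR at an adjusted p under 0.05. Under UVC the immunoproteasome subunits and PSME1 and PSME2 stand right of 0 and most regulatory particle genes left of it, and PSMD12 lies farthest from 0 in the first panel (-1.68) and in the second (1.51).

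All 3 immunoproteasome subunits rose under UVC, and with active photolyase they lay between UVC and control. PSMB8 (ENSG00000204264), the inducible subunit with chymotrypsin-like activity, was measured at 69.3 and 77.9 scaled cRPKM in the UVC libraries with active photolyase, 89.8 and 92.3 in the UVC libraries and 54.9 and 51.4 in the control libraries. PSMB9 (ENSG00000240065), which takes the place of PSMB6, was measured at 104 and 107 scaled cRPKM in the UVC libraries with active photolyase, 137 and 145 in the UVC libraries and 84.0 and 81.2 in the control libraries. PSMB10 (ENSG00000205220), which takes the place of PSMB7, was measured at 89.8 and 90.1 scaled cRPKM in the UVC libraries with active photolyase, 108 and 110 in the UVC libraries and 75 and 72.3 in the control libraries. For each of the 3, both UVC libraries were highest, both libraries with active photolyase were intermediate and both control libraries were lowest, without overlap.

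In UVC against control, PSMB8 rose 1.72-fold (log2 0.78 ± 0.06 SE, adjusted p = 3.41e-08, edgeR), PSMB9 1.71-fold (adjusted p = 5.37e-09) and PSMB10 1.48-fold (adjusted p = 6.55e-08). With active photolyase against UVC alone, PSMB8 fell by 0.31, PSMB9 by 0.42 and PSMB10 by 0.28 on the log2 scale (adjusted p = 0.000361, 4.05e-06 and 9.81e-05). They stayed above control: in UVC with active photolyase against control the 3 were higher by 0.47, 0.35 and 0.29 (adjusted p = 1.8e-05, 5.15e-05 and 0.000142). These 9 calls held in all 16 settings run, library totals and each left-out library included. Without the second library with active photolyase, the median of the 3 in UVC with active photolyase against UVC moved to -0.43, against -0.31 with it.

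PSMB8 and PSMB9 lie on chromosome 6 among the peptide transporter genes TAP2 and TAP1. PSMB9 is annotated as overlapping both PSMB8 and TAP1, which are on the opposite strand, and PSMB8-AS1 overlaps both subunit genes. The sources used here do not say whether strand was used in counting, so reads of these genes may be shared among them. PSMB10 lies apart, on chromosome 16.

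Their constitutive partners moved less on the TMM scale. PSMB5 (ENSG00000100804), the constitutive subunit with chymotrypsin-like activity, was measured at 96.8 and 101 scaled cRPKM in the UVC libraries with active photolyase, 106 and 105 in the UVC libraries and 103 and 97 in the control libraries, and passed the test in none of the 3 comparisons (log2 0.08 in UVC against control, adjusted p = 0.168; -0.09 and 0.104 in UVC with active photolyase against UVC; -0.02 and 0.786 in UVC with active photolyase against control, all by edgeR). By library totals PSMB5 was called higher in UVC against control (0.49) and lower with active photolyase against UVC (-0.40), and without the second library with active photolyase its difference between the irradiated groups was called at -0.16. PSMB6 (ENSG00000142507), the caspase-like subunit, was measured at 132 and 132 scaled cRPKM in the UVC libraries with active photolyase, 150 and 145 in the UVC libraries and 128 and 122 in the control libraries. Its rise under UVC was 1.18-fold (adjusted p = 0.000405, edgeR), and it fell by 0.16 on the log2 scale with active photolyase against UVC alone (adjusted p = 0.00713), a call lost without the first UVC library (-0.14). PSMB7 (ENSG00000136930), the trypsin-like subunit, was measured at 269 and 270 scaled cRPKM in the UVC libraries with active photolyase, 238 and 236 in the UVC libraries and 303 and 286 in the control libraries. It was the most abundant proteasome gene of the control libraries per length and stood 1.24-fold lower under UVC (adjusted p = 5.74e-05, edgeR), a direction that turned to 0.11 by library totals. With active photolyase it was higher than with UVC by 0.18, which turned to -0.12 by library totals and lost its call without the second library with active photolyase (0.14).

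The ratio of an inducible subunit to its constitutive partner within a library needs no scaling between libraries. PSMB8 over PSMB5 was 0.716 and 0.774 in the UVC libraries with active photolyase, 0.847 and 0.883 in the UVC libraries and 0.533 and 0.53 in the control libraries. PSMB9 over PSMB6 was 0.787 and 0.81 with active photolyase, 0.914 and 0.996 with UVC, and 0.656 and 0.665 in controls. PSMB10 over PSMB7 was 0.334 in both libraries with active photolyase, 0.456 and 0.466 with UVC, and 0.248 and 0.253 in controls. All 3 ratios fell in the same order of groups with no overlap, and the UVC mean stood 1.63, 1.45 and 1.84 times above the control mean for PSMB8, PSMB9 and PSMB10. With 2 libraries a group these ratios carry no test.

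**Figure D2:**
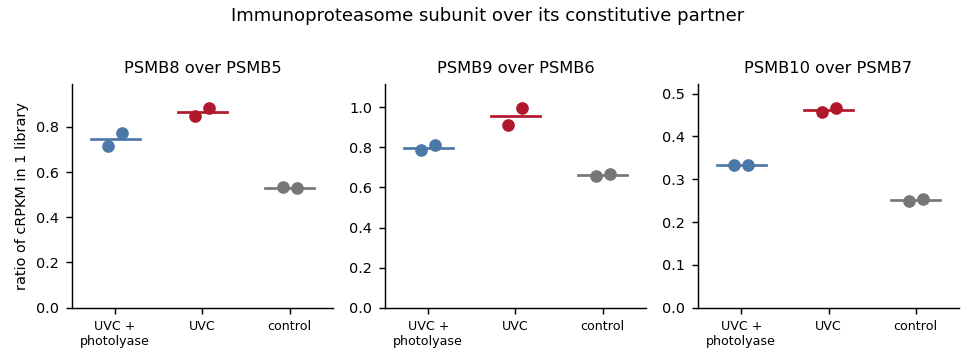
Ratio of cRPKM of each immunoproteasome subunit to the constitutive subunit it replaces, in each of the 6 libraries; points are libraries, lines are group means and each vertical axis starts at 0. In all 3 panels the 2 UVC libraries are highest, the 2 with active photolyase come next (0.334 in both for PSMB10 over PSMB7) and the 2 controls are lowest.

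Immune cells also express these subunits, so immune markers were read beside them. PTPRC, which marks all white blood cells, was at 0.0451 scaled cRPKM or below in every library, and 4 of 11 immune markers passed the test filter. The summed level of the 11 was 188 and 199 scaled cRPKM in the UVC libraries with active photolyase, 181 and 183 in the UVC libraries and 146 and 133 in the control libraries. Most of it came from CD74 (106 and 117, 128 and 133, and 89.6 and 79.3 in the same order of groups) and CD68. Of the other lists, 1 of 7 melanocyte markers and 2 of 8 fibroblast markers passed the filter, and their summed levels were at most 2.25 and 9.62 scaled cRPKM in any library. The keratinocyte markers summed to 26400 in each library with active photolyase, 17100 and 16800 with UVC, and 27800 and 27200 in controls. As a share of all counts they took 2.75% and 2.79%, 2.47% and 2.42%, and 2.76% and 2.73% in the same order. Under UVC 8 of the 10 were called lower and 1 higher, against 43.1% and 42.5% of all tested genes. By library totals 6 were lower and 3 higher, against 29.7% and 59.5%. The part of any of these lists in the proteasome results was not tested.

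The 4 activators split by direction under UVC. PSME1 and PSME2 form the PA28 alpha-beta ring that pairs with the immunoproteasome, and both rose under UVC. PSME1 (ENSG00000092010) was measured at 267 and 303 scaled cRPKM in the UVC libraries with active photolyase, 348 and 357 in the UVC libraries and 249 and 237 in the control libraries. PSME2 (ENSG00000100911) was measured at 182 and 191 scaled cRPKM in the UVC libraries with active photolyase, 228 and 241 in the UVC libraries and 154 and 148 in the control libraries. In UVC against control the rises were 1.45-fold and 1.55-fold (adjusted p = 2.01e-06 and 8.09e-08, edgeR). With active photolyase against UVC alone the 2 genes fell by 0.31 and 0.33 on the log2 scale (adjusted p = 0.00049 and 7.4e-05), and in UVC with active photolyase against control they were higher by 0.23 and 0.30 (adjusted p = 0.00509 and 0.00026). The last call of PSME1 was lost without the second library with active photolyase (0.14). Its 2 libraries in that group, 267 and 303, lay farther apart than those of any other group for this gene.

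PSME3 and PSME4 encode nuclear activators, the PA28 gamma ring and PA200, and both fell under UVC. PSME3 (ENSG00000131467) was measured at 58.9 and 59.8 scaled cRPKM in the UVC libraries with active photolyase, 36.2 and 36.3 in the UVC libraries and 66.3 and 65.4 in the control libraries. PSME4 (ENSG00000068878) was measured at 20.3 and 20.3 scaled cRPKM in the UVC libraries with active photolyase, 11.3 and 11.5 in the UVC libraries and 24.0 and 25.7 in the control libraries. PSME3 was 1.81-fold and PSME4 2.17-fold lower in UVC than in control (adjusted p = 8e-10 and 1.09e-10, edgeR). With active photolyase they were 1.63-fold and 1.78-fold higher than with UVC alone (adjusted p = 1.01e-08 and 4.06e-09) and still lower than control (log2 fold changes of -0.15 and -0.29, adjusted p = 0.0126 and 0.00023). The ratio of PSME1 to PSME3 was 4.54 and 5.07 with active photolyase, 9.62 and 9.81 with UVC, and 3.76 and 3.62 in controls. By library totals PSME3 was not called in UVC with active photolyase against control (-0.04), and the other 5 calls held. PSME3 overlaps BECN1, and PSME4 overlaps ACYP2, on the opposite strand.

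PSMF1 (ENSG00000125818), which encodes the core inhibitor known as PI31, was measured at 35.4 and 37.4 scaled cRPKM in the UVC libraries with active photolyase, 38.5 and 38.5 in the UVC libraries and 46.8 and 44.5 in the control libraries. It was lower than control in both irradiated groups, with log2 fold changes of -0.33 with active photolyase and -0.24 with UVC alone (adjusted p = 8.88e-05 and 0.000472, edgeR), and did not pass the test between them (-0.08, adjusted p = 0.159). By library totals the UVC difference turned to 0.17, while the fall with active photolyase against control was called in all 16 settings. Without the second library with active photolyase, the difference between the irradiated groups was called at -0.16.

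**Figure D3:**
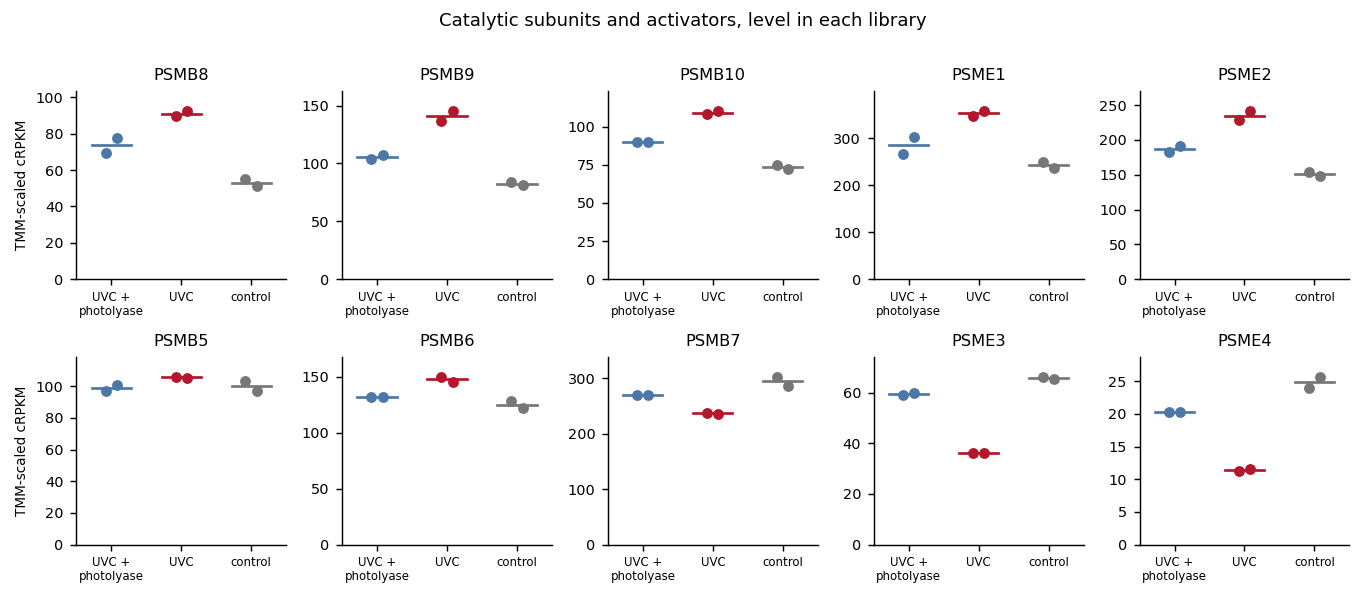
Scaled cRPKM of the inducible and constitutive cutting subunits and of the activators in each library; points are libraries, lines are group means and each vertical axis starts at 0. PSMB8, PSMB9, PSMB10, PSME1 and PSME2 are highest in the 2 UVC libraries, PSME3 and PSME4 are lowest there, and PSMB5 differs little between groups.

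Of the other core genes, PSMA4 stood out. PSMA4 (ENSG00000041357), an alpha ring subunit whose promoter is printed above, was measured at 186 and 188 scaled cRPKM in the UVC libraries with active photolyase, 215 and 222 in the UVC libraries and 155 and 150 in the control libraries. It rose 1.43-fold in UVC against control (adjusted p = 2.96e-07, edgeR), fell by 0.23 on the log2 scale with active photolyase against UVC (adjusted p = 0.000876) and remained higher than control by 0.29 (adjusted p = 0.000195). The order of the groups was the one seen for the immunoproteasome subunits, without overlap. PSMA6, another alpha subunit, followed with 0.35, -0.16 and 0.18 in the same 3 comparisons, and PSMB4, a beta subunit without a cutting site, with 0.31, -0.17 and 0.14; all 6 differences were called.

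Over the 13 constitutive core genes tested, 5 were higher under UVC (PSMA2, PSMA4, PSMA6, PSMB4 and PSMB6) and 5 lower (PSMA1, PSMA3, PSMB1, PSMB2 and PSMB7), with a median log2 fold change of -0.07. These shares, 38.5% each, were near the 42.5% higher and 43.1% lower of all tested genes. The 5 falls were -0.18, -0.14, -0.15, -0.19 and -0.31, and their number was 3 without the second library with active photolyase, which shares the fit. By library totals 12 of the 13 were called higher, against 59.5% of all tested genes. Among all tested genes 39.2% were higher and 39.9% lower with active photolyase than with UVC alone, and 58.3% were lower by library totals. Between the irradiated groups, with active photolyase against UVC alone, 4 core genes were higher and 4 lower (median 0.05), whereas by library totals all 13 were lower (median -0.26). These counts rest on single libraries: without the first UVC library they were 2 and 2, without the first library with active photolyase 2 genes were lower, and without the second none was higher at either an adjusted or an unadjusted p under 0.05 by edgeR. The median turned to -0.01 without the first UVC library and without the second library with active photolyase. Against control, 3 core genes were higher with active photolyase (PSMA4, PSMA6 and PSMB4) and PSMB7 was lower, at -0.13. Among all tested genes 33% were higher and 32.9% lower there. The PSMB7 call was kept without the second control library and lost without any of the other 5, at -0.13 to -0.09. The median there was -0.02.

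On the TMM scale 13 of the 17 regulatory particle genes were lower under UVC and PSMD4 was higher, whereas by library totals 3 were lower (PSMC6, PSMD11 and PSMD12) and 7 higher. Of all tested genes 43.1% were lower and 42.5% higher on the TMM scale, and 29.7% and 59.5% by library totals. The TMM fit gave the 17 genes a median log2 fold change of -0.35, against 0.06 by library totals, and PSMC5, PSMD8 and PSMD13 were not called in it. PSMD12 (ENSG00000197170), a subunit of the lid, was measured at 34.3 and 34.8 scaled cRPKM in the UVC libraries with active photolyase, 11.9 and 12.4 in the UVC libraries and 39.2 and 38.9 in the control libraries. It was 3.21-fold lower in UVC than in control (log2 -1.68 ± 0.05 SE, adjusted p = 1.07e-12, edgeR), 2.84-fold higher with active photolyase than with UVC (log2 1.51 ± 0.05 SE, adjusted p = 5.11e-12) and 1.13-fold lower with active photolyase than in control (adjusted p = 0.00512). These were the largest differences of any proteasome gene in the first comparison and in the second. By library totals the first 2 differences were -1.26 and 1.20 on the log2 scale and still called, and the last was -0.06 and not called. The ratio of PSMD12 to PSMA4 was 0.185 in both libraries with active photolyase, 0.0555 and 0.0558 with UVC, and 0.252 and 0.259 in controls.

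PSMD11 (ENSG00000108671), a lid subunit that helps to hold cap and core together, was measured at 38.7 and 40.5 scaled cRPKM in the UVC libraries with active photolyase, 26.6 and 26.6 in the UVC libraries and 52.3 and 49.8 in the control libraries. PSMC6 (ENSG00000100519), one of the ring of ATPases, was measured at 32.8 and 31.6 scaled cRPKM in the UVC libraries with active photolyase, 17.7 and 19.5 in the UVC libraries and 37.1 and 38.6 in the control libraries. In UVC against control PSMD11 was 1.91-fold and PSMC6 2.03-fold lower (adjusted p = 5.72e-10 and 1.05e-09, edgeR). With active photolyase the 2 genes were higher than with UVC by 0.57 and 0.79 on the log2 scale, and against control they had -0.37 and -0.23 (adjusted p = 1.81e-07, 2.74e-08, 2.62e-05 and 0.00281). PSMC1 (ENSG00000100764), another ATPase, was measured at 95.6 and 98.2 scaled cRPKM in the UVC libraries with active photolyase, 77.8 and 78.1 in the UVC libraries and 112 and 109 in the control libraries, and took the same order of groups (-0.50, 0.31 and -0.19 in the 3 comparisons, all called). PSMC1 has 13 named pseudogenes in GENCODE 29, whose reads the authors' counting could have split or pooled. By library totals PSMC6 and PSMD11 kept their calls in UVC against control (-0.60 and -0.52) and PSMC1 did not (-0.08), and in UVC with active photolyase against control PSMC6 lost its call (-0.12).

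PSMD14 and PSMD1 fell in both irradiated groups. PSMD14 (ENSG00000115233), the deubiquitinase of the lid, was measured at 36.9 and 38.4 scaled cRPKM in the UVC libraries with active photolyase, 36.3 and 37.3 in the UVC libraries and 53.3 and 52.8 in the control libraries. PSMD1 (ENSG00000173692), a scaffold of the base, was measured at 25.8 and 28.4 scaled cRPKM in the UVC libraries with active photolyase, 26.3 and 26.1 in the UVC libraries and 36.7 and 37.0 in the control libraries. Both irradiated groups lay below control and close to each other. With active photolyase against control the log2 fold changes were -0.49 and -0.45 (adjusted p = 1.4e-06 and 8.8e-06, edgeR), and in UVC against control -0.53 and -0.49 (adjusted p = 1.89e-07 and 1.08e-06). Between the irradiated groups, with active photolyase against UVC alone, they were 0.03 ± 0.05 and 0.05 ± 0.05 (SE, adjusted p = 0.546 and 0.439), and by library totals both were called lower there (-0.27 and -0.26). The falls in UVC against control were not called by library totals (-0.11 and -0.07). The falls against control with active photolyase were called in all 16 settings.

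PSMD4 (ENSG00000159352), a ubiquitin receptor of the cap, was measured at 118 and 121 scaled cRPKM in the UVC libraries with active photolyase, 133 and 130 in the UVC libraries and 114 and 105 in the control libraries. It rose by 0.26 on the log2 scale in UVC against control (adjusted p = 0.000333, edgeR). Its smaller differences in UVC with active photolyase against UVC (-0.13) and against control (0.13) rested on single libraries. The first lost its call without either UVC library (-0.12 and -0.15) and without the first library with active photolyase (-0.12). The second kept its call without the first control library and lost it without any of the other 5, at 0.07 to 0.15. The other members of the cap that were lower under UVC were PSMC2 (-0.51), PSMD6 (-0.40), PSMD2 (-0.35), PSMD7 (-0.33), PSMD3 (-0.29), PSMC3 (-0.19) and PSMC4 (-0.13). With active photolyase against UVC alone, 9 of the 17 were higher and PSMD4 was lower (median 0.20). Among the 9 was PSMD2 (0.47), the base subunit that docks ubiquitin-like shuttles. Of all tested genes 39.2% were higher and 39.9% lower. By library totals 4 of the 17 were higher and 8 lower (median -0.10), against 27.8% and 58.3% of all tested genes. Against control, 8 of the 17 were lower with active photolyase and PSMD4 was higher (median -0.09), and by library totals 3 were lower and 5 higher (median 0.02). Of all tested genes 32.9% were lower and 33% higher there, and 23.8% and 43.9% by library totals.

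**Figure D4:**
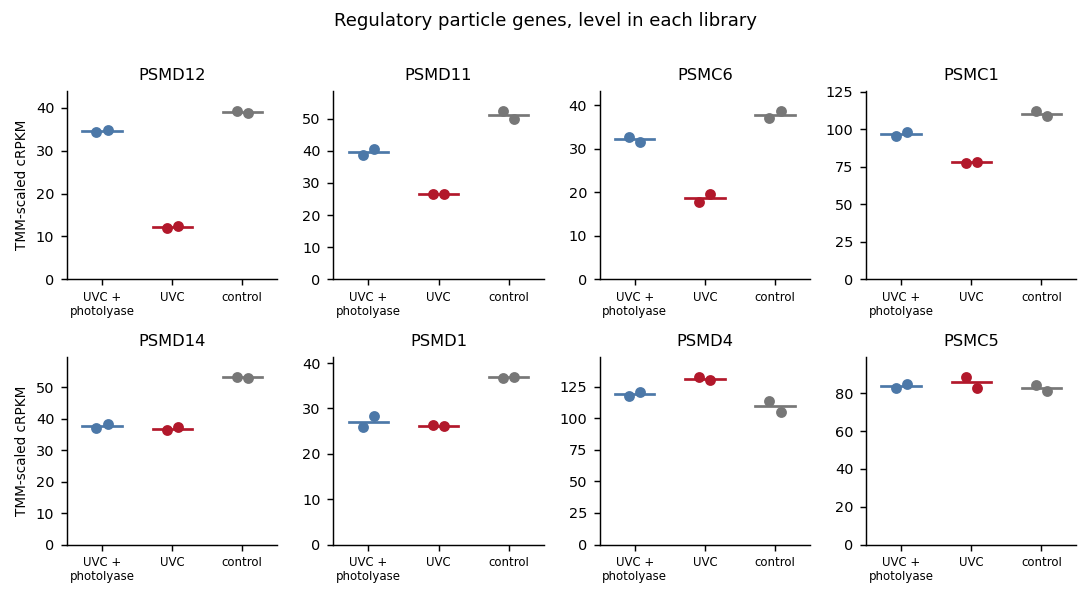
Scaled cRPKM of 8 regulatory particle genes in each library; points are libraries, lines are group means and each vertical axis starts at 0. PSMD12, PSMD11, PSMC6 and PSMC1 are lowest in the 2 UVC libraries and intermediate with active photolyase, PSMD14 and PSMD1 are low in all 4 irradiated libraries, PSMD4 is highest in the 2 UVC libraries and PSMC5 overlaps between groups.

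Levels per length within the cap spread out under UVC. Its least and most abundant genes, PSMD1 at 27.1 and PSMD4 at 120 scaled cRPKM, differed 4.42 times with active photolyase. With UVC alone the pair was PSMD12 at 12.2 and PSMD4 at 131, which differed 10.8 times, and in controls it was PSMD6 at 32.1 and PSMC3 at 115, which differed 3.59 times. The coefficient of variation over the 17 genes was 54.1% with active photolyase, 63.2% with UVC and 46.7% in controls. Over the 13 constitutive core genes it was 42.5%, 42.6% and 45.4% in the same order of groups. PSMB2 was the lowest core gene in every group, at 44.4 ± 3.4, 41.2 ± 0.28 and 47.0 ± 1.3 scaled cRPKM (SD, n = 2 each).

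The assembly chaperones were the least abundant class. PSMG1 (ENSG00000183527), which pairs with PSMG2 to order the alpha ring, was measured at 15.2 and 16.5 scaled cRPKM in the UVC libraries with active photolyase, 12.8 and 14.3 in the UVC libraries and 15.1 and 14.7 in the control libraries. It was higher with active photolyase than with UVC by 0.22 on the log2 scale (adjusted p = 0.00767, edgeR), a call lost without the first UVC library (0.15) and without the second library with active photolyase (0.12). It did not pass against control (0.09 with active photolyase, -0.14 with UVC), although without the second UVC library its UVC difference was called at -0.21 and by library totals it was 0.28. PSMG2 (ENSG00000128789) was measured at 11.9 and 12.7 scaled cRPKM in the UVC libraries with active photolyase, 8.81 and 9.75 in the UVC libraries and 15.5 and 16.5 in the control libraries. PSMG2 fell 1.72-fold in UVC against control (adjusted p = 3.02e-07, edgeR). With active photolyase it was higher than with UVC by 0.41 (adjusted p = 0.000258), which was 0.10 and not called by library totals. It was still lower with active photolyase than in control (-0.38, adjusted p = 0.000596). PSMG3 was higher than control in both irradiated groups (0.20 with active photolyase and 0.25 with UVC), and PSMG4 was not called in any comparison (0.07, 0.02 and 0.10, with SE of 0.12).

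Among the chaperones of the cap, PSMD10, also known as gankyrin, rose by 0.41 under UVC (adjusted p = 1.68e-05, edgeR), whereas PSMD5 and PSMD9 fell by 0.43 and 0.30 (adjusted p = 2.78e-06 and 0.000163). Set against UVC alone, active photolyase gave the 3 log2 fold changes of -0.26, 0.35 and 0.25, all called. By library totals neither PSMD5 nor PSMD9 was called under UVC (-0.01 and 0.11) or with active photolyase against UVC (0.04 and -0.06). Against control with active photolyase PSMD10 was still called (0.16), and PSMD5 and PSMD9 were not (-0.08 and -0.05). The genes set apart were PSMC3IP, with 0.47, 0.07 and 0.54 in the 3 comparisons, and PSME3IP1, with 0.34, -0.31 and 0.04.

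The summed level of the 47 genes hardly differed between groups on the TMM scale: 3970 and 4100 scaled cRPKM with active photolyase, 4050 and 4100 with UVC, and 4010 and 3870 in controls. Within that sum the classes differed in direction. The immunoproteasome subunits summed to 263 and 275 with active photolyase, 335 and 347 with UVC, and 214 and 205 in controls. The regulatory particle summed to 1040 and 1080 with active photolyase, 933 and 927 with UVC, and 1130 and 1100 in controls. As a share of all counts, which TMM does not touch, the 47 genes took 0.543% and 0.565% with active photolyase, 0.646% and 0.655% with UVC, and 0.525% and 0.509% in controls. The immunoproteasome subunits took 0.0244% and 0.0256%, 0.0382% and 0.0395%, and 0.0185% and 0.0176% of counts in the same order of groups, and the regulatory particle 0.205% and 0.215%, 0.216% in both UVC libraries, and 0.211% and 0.206%. The lower sum of the regulatory particle under UVC is thus present on the TMM scale and not in the share of counts.

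Proteasome genes differ widely in genomic length, and their log2 fold changes ran with it. The span of the principal transcript in GENCODE 29, which was added after the values had been seen, ran from 2.36 kb in PSMB6 to 116 kb in PSMD1. Across the 45 genes Spearman's rho between span and log2 fold change was -0.69 in UVC against control, 0.54 in UVC with active photolyase against UVC and -0.74 in UVC with active photolyase against control, against -0.25, 0.02 and -0.47 across the 11562 tested genes with a span. Genes are not independent replicates, and the points share their libraries. Of the 7 proteasome genes of 30 kb or more, all 7 were lower under UVC on the TMM scale (PSMD11, PSMB2, PSMF1, PSMB7, PSMD14, PSME4 and PSMD1), and of the 18 under 10 kb, 9 were higher and 3 lower. By library totals PSMD11 and PSME4 were still called lower (-0.52 and -0.70), and PSMB2 and PSMF1 were called higher (0.23 and 0.17). PSMB7, PSMD14 and PSMD1 were not called by library totals (0.11, -0.11 and -0.07). Among all tested genes of 30 kb or more, 2780 of 5280 were lower under UVC on the TMM scale and 1766 higher. Of those under 10 kb, 1643 of 2764 were higher and 717 lower.

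Span did not order every gene. PSMD12, at 28.7 kb, fell further than PSMD1 and PSMD14, which span more than 100 kb, and PSME3, at 8.18 kb, fell by 0.86 under UVC. The number of bases behind each cRPKM, obtained as count over cRPKM, gave similar rho values of -0.69, 0.59 and -0.62, against -0.27, 0.14 and -0.32 across all tested genes, so span and transcript length cannot be told apart here. The immunoproteasome genes, PSME1 and PSME2 are among the shortest, at 2.59 to 5.42 kb. Their calls and their length therefore move together, and the part of length in them was not tested.

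**Figure D5:**
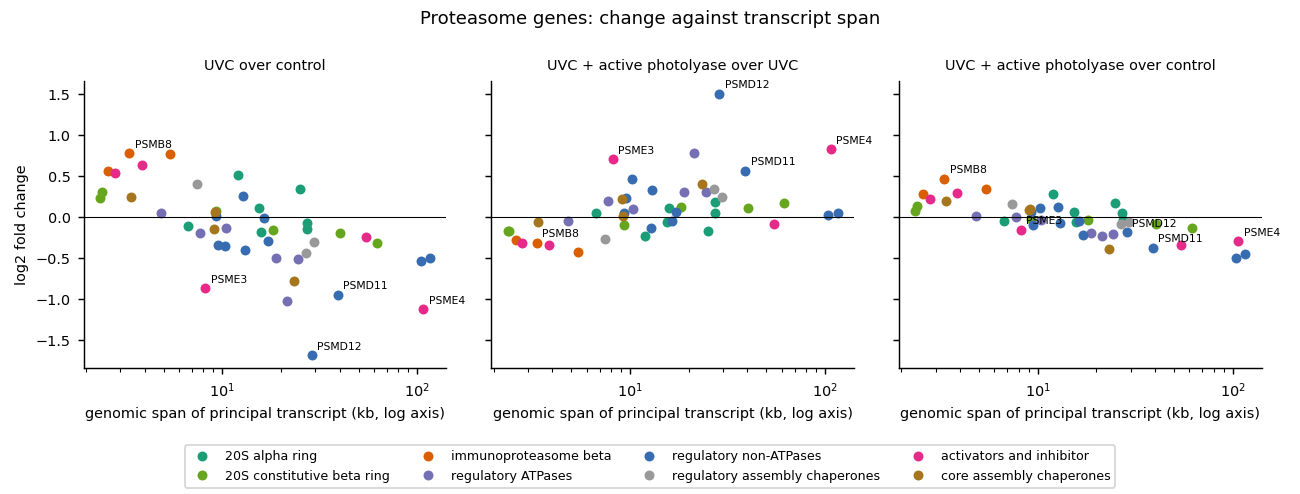
Log2 fold change of the 45 tested proteasome genes against the genomic span of their principal transcript (log axis, in kb) in the 3 comparisons, coloured by role. In UVC against control and in UVC with active photolyase against control the shortest genes lie above 0 and the longest below it (rho of -0.69 and -0.74); PSME3 and PSMD12 lie well below genes of like span in the first.

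The promoter motifs were then read against the values. Of the 6 genes with the interferon core, 5 (PSMA4, PSMB4, PSMB10, PSME1 and PSME2) were higher in UVC than in control, lower with active photolyase than with UVC, and higher with active photolyase than in control. PSMG4, the sixth, was not called. Among all tested genes with a promoter, 47.5% of the 276 with the motif and 41.9% of the 9181 without it were higher in UVC than in control. For active photolyase against control these shares were 46.7% and 31.9%. In UVC with active photolyase against UVC the shares lower, the direction of the 5 genes, were 33.3% with the motif and 40.3% without it, and the shares higher were 43.5% and 39.8%. PSMB8 and PSMB9, which rose most, have no match to it in their windows. Of the 12 genes with TGACNNNGC, 8 were lower and 3 higher under UVC, and 46.4% of the 1433 tested genes with that motif were lower. A match is a description of the letters and not a sign of binding.

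Genes that regulate the proteasome were read from 6 further lists, whose counts stand against 42.5% of all tested genes higher and 43.1% lower in UVC against control, 39.2% and 39.9% in UVC with active photolyase against UVC, and 33% and 32.9% in UVC with active photolyase against control. For the counts by library totals these shares were 59.5% and 29.7%, 27.8% and 58.3%, and 43.9% and 23.8% in the same order. The interferon route had 8 of 9 genes tested, 4 higher and 2 lower in UVC against control, 4 higher and 1 lower in UVC with active photolyase against UVC, and 5 higher and 1 lower in UVC with active photolyase against control. By library totals its counts were 7 higher and 1 lower, 1 higher and 4 lower, and 6 higher. IRF1 (ENSG00000125347), a factor that switches on the immunoproteasome genes, was measured at 37.7 and 39.6 scaled cRPKM in the UVC libraries with active photolyase, 44.8 and 41.3 in the UVC libraries and 15.0 and 18.6 in the control libraries. It rose 2.57-fold in UVC against control (adjusted p = 1.94e-09, edgeR) and 2.31-fold in UVC with active photolyase against control (adjusted p = 4.57e-08), and its difference between the irradiated groups missed the threshold (-0.16, adjusted p = 0.0841), although it passed at -0.16 when the first or the second control library was left out and at -0.46 by library totals. TAP1 (ENSG00000168394), which carries proteasome peptides to class I molecules and overlaps PSMB9, was measured at 97.6 and 106 scaled cRPKM in the UVC libraries with active photolyase, 95.8 and 95.9 in the UVC libraries and 69.2 and 73.7 in the control libraries. TAP1 was higher than control by 0.51 with active photolyase and by 0.43 with UVC, with 0.08 between them (adjusted p = 0.187), which turned to -0.22 by library totals. The class I co-activator NLRC5 fell by 0.67 under UVC and IRF9 by 0.23, and TAPBP rose by 0.53; in UVC with active photolyase against UVC these 3 differed by 0.41, 0.53 and -0.50, all called. By library totals IRF9 was called higher under UVC (0.18), and the difference of NLRC5 between the irradiated groups was not called (0.10). NLRC5 was also lower with active photolyase than in control (-0.27), a call lost without the second control library (-0.13) and without the second library with active photolyase (-0.22).

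NFE2L1 is the factor that raises proteasome genes when the particle is short, and its list had 3 genes higher and 6 lower of 10 in UVC against control, 7 higher and 3 lower in UVC with active photolyase against UVC, and 2 higher and 4 lower in UVC with active photolyase against control. By library totals the counts were 4 higher and 5 lower, 5 higher and 3 lower, and 3 higher and 3 lower. NFE2L1 (ENSG00000082641) itself was measured at 109 and 103 scaled cRPKM in the UVC libraries with active photolyase, 126 and 122 in the UVC libraries and 81.7 and 81.8 in the control libraries. It rose 1.52-fold under UVC (adjusted p = 1.17e-07, edgeR), fell by 0.23 on the log2 scale with active photolyase against UVC and was higher than control by 0.37. MAFK (ENSG00000198517), a small Maf protein that pairs with it on DNA, was measured at 64.8 and 60.6 scaled cRPKM in the UVC libraries with active photolyase, 16.4 and 16.7 in the UVC libraries and 86.6 and 86.8 in the control libraries. MAFK was thus 5.25-fold lower in UVC than in control (adjusted p = 1.04e-13) and 3.8-fold higher with active photolyase than with UVC (adjusted p = 1.25e-12). SEL1L, which acts in the export of proteins from the endoplasmic reticulum, differed by -2.05, 1.27 and -0.77 in the 3 comparisons. NFE2L3, a relative, rose by 0.54 under UVC, and MAFG, a further small Maf, was higher by 0.41 with active photolyase than in control.

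The assembly and import list had 3 genes higher and 2 lower of 5 under UVC and 2 and 2 in UVC with active photolyase against UVC, and by library totals 4 higher and 1 lower, and 1 higher and 3 lower. With active photolyase against control it had 0 called by edgeR, 0 at an unadjusted p under 0.05 and 0 by DESeq2, against 2 higher by limma on deposited cRPKM and 2 higher by library totals. AKIRIN2 (ENSG00000135334), which carries assembled proteasomes into the nucleus, was measured at 57.7 and 60.2 scaled cRPKM in the UVC libraries with active photolyase, 13.9 and 14.3 in the UVC libraries and 57.6 and 53.4 in the control libraries. It was 3.92-fold lower in UVC than in control (adjusted p = 1.1e-12, edgeR) and 4.17-fold higher with active photolyase than with UVC (adjusted p = 1.29e-12). The 2 UVC libraries lay far below the other 4. PAAF1 (ENSG00000175575), which binds the cap ATPases during assembly, was measured at 6.62 and 7.0 scaled cRPKM in the UVC libraries with active photolyase, 11.7 and 13.1 in the UVC libraries and 7.83 and 7.07 in the control libraries; it moved the other way (0.74 and -0.86 in the same comparisons, both called). POMP (ENSG00000132963), the maturation factor of the core, differed by -0.28 under UVC and 0.27 with active photolyase against UVC, both called, and turned to 0.14 and -0.03 by library totals.

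Of 8 other subunits and bound factors, 2 were higher and 6 lower in UVC against control, 5 higher and 1 lower in UVC with active photolyase against UVC, and 2 higher and 3 lower in UVC with active photolyase against control. By library totals they were 2 higher and 5 lower, 3 higher and 4 lower, and 2 higher and 3 lower. The bound deubiquitinases parted: USP14 (ENSG00000101557) fell 2.03-fold and UCHL5 (ENSG00000116750) rose 1.26-fold under UVC (adjusted p = 5.17e-10 and 0.000223, edgeR), and with active photolyase they differed from UVC by 0.54 and -0.39 on the log2 scale. ZFAND5, a ubiquitin-binding activator, was 1.83-fold higher with active photolyase than with UVC, and the ligase UBE3C was lower than control, with log2 fold changes of -0.58 with active photolyase and -0.72 with UVC. Of 6 ubiquitin genes and activating enzymes, 3 were higher and 3 lower under UVC, 4 were higher with active photolyase than with UVC, and 4 were higher and 1 lower with active photolyase than in control. On the scale of library totals 3 were higher and 1 lower, 3 higher and 3 lower, and 4 higher. UBB (ENSG00000170315), a polyubiquitin gene, was measured at 802 and 843 scaled cRPKM in the UVC libraries with active photolyase, 759 and 743 in the UVC libraries and 543 and 522 in the control libraries. UBB rose by 0.50 on the log2 scale under UVC, and the activating enzyme UBA6 was 1.99-fold lower (adjusted p = 7.61e-07 and 9.54e-09, edgeR). UBA6 was also lower with active photolyase than in control (-0.24), a call lost without the second control library (-0.12) and without the first library with active photolyase (-0.22).

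Of 9 shuttle and unfolding factors, 2 were higher and 6 lower in UVC against control, 4 higher and 1 lower in UVC with active photolyase against UVC, and 2 higher and 6 lower in UVC with active photolyase against control. Scaled by library totals, 4 were higher and 4 lower, 2 higher and 5 lower, and 2 higher and 4 lower. VCP (ENSG00000165280), the segregase that pulls substrates out of complexes, was measured at 56.9 and 61.5 scaled cRPKM in the UVC libraries with active photolyase, 39.0 and 39.8 in the UVC libraries and 76.1 and 74.8 in the control libraries. Together with NPLOC4, its cofactor, it was lower in UVC than in control (log2 fold changes of -0.93 and -0.90, adjusted p = 1.2e-09 and 8.45e-10, edgeR) and lower with active photolyase than in control (-0.35 and -0.62). The shuttle UBQLN2 rose by 0.50 under UVC and UBQLN4 by 0.45, and both were higher than control with active photolyase, by 0.51 and 0.20.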

How the data were processed

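Each of the 6 libraries has 1 deposited table, with the authors' cRPKM, a corrected RPKM value per gene, and the authors' whole-number count of reads per gene. Per the submitters' processing notes, Bowtie and hg19 were used. The sources used here do not give the counting rule, the strand setting, the annotation or the correction behind cRPKM. For 6664 genes above 5 cRPKM in each library, the length implied by count and cRPKM differed by at most 0.183% between libraries. Of 19847 genes listed, 354 had no value and were left out. Ensembl IDs were matched to symbols, overlaps and spans in GENCODE 29 (GRCh38), and 18913 of the 19493 genes with a value had a symbol. The annotation places a gene on the opposite strand of 24 of the 47 proteasome genes and on the same strand of 13, and 11 have named pseudogenes (31 in all), so their counts may be shared. Promoters came from RefSeq tables of GRCh38.p14.

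The test was that of edgeR 4.0.16 (R 4.3.3) on counts: TMM factors, 3 group means over all 6 libraries, the quasi-likelihood F test, two-sided, and Benjamini-Hochberg adjustment over the 11926 genes with at least 1 cRPKM in 2 or more libraries. TMM factors were 0.9543 and 0.957 with active photolyase, 1.181 and 1.183 with UVC and 0.8864 and 0.8841 in controls. The common biological coefficient of variation was 4.62%. Replicates differed by more than sampling noise in every group (chi-square per degree of freedom of 11.8 with active photolyase, 4.59 with UVC and 19.6 in controls) and were counted as separate samples. Alternatives were library totals, DESeq2 1.42.0, a filter of 5 cRPKM, no filter, limma 3.58.1 on log2(cRPKM + 1) and log2(cRPKM + 0.1) and after median centring, a replicate block, each library left out, and the 4 libraries of a comparison alone. The proteasome genes, classes, lists and motifs were chosen with earlier results of these data known. Values per library are given for the cutting subunits, their partners, the PA28 genes and 5 other fixed genes, and for the 4 genes called higher and the 4 called lower with the largest fold change in each comparison; of each further list, the genes with the smallest p in each direction are named, with NFE2L1, POMP, IRF1 and TAP1. A gene that this rule selects is not reported here. PSMA6, PSMB4 and the remaining cap and chaperone genes complete the account of each class. No protein sequence was compared.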

Additional observations from a re-analysis of the deposited data

How the results depend on the processing

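Scaling between libraries decided most falls. By library totals, 29 proteasome genes were higher and 6 lower in UVC against control (median log2 fold change 0.28), 6 higher and 30 lower in UVC with active photolyase against UVC (-0.25), and 19 higher and 6 lower in UVC with active photolyase against control (0.08). Limma on log2(cRPKM + 1) gave 28 and 6 (0.26), 6 and 27 (-0.25), and 17 and 6 (0.08) in these comparisons. Over all 11926 tested genes it gave 7083 and 3528 (0.35), 3308 and 6966 (-0.29), and 5106 and 2732 (0.10). On log2(cRPKM + 0.1) the proteasome genes gave 28 and 6 (0.28), 6 and 27 (-0.25), and 6 lower (0.08) in the last. All tested genes gave 7024 and 3494 (0.42), 3272 and 6867 (-0.34), and 2641 lower (0.12) in the last. After median centring the proteasome genes gave 22 and 11 (0.13), 8 and 22 (-0.16), and 7 lower in the last. All tested genes then gave 6413 and 4017 (0.22), 3689 and 6353 (-0.20), and 3145 lower in the last. These settings use other scalings by construction. In UVC against control POMP turned to 0.14 by library totals and both uncentred limma fits and to 0.01 after centring, PSMB7 to 0.11, 0.10 and 0.11, PSMF1 to 0.17 in all 3 and 0.04 after centring, and PSMG1 to 0.28, 0.26 and 0.28. In UVC with active photolyase against UVC, POMP turned to -0.03, PSMB7 to -0.12, PSMD14 to -0.27, PSMG1 to -0.08 and TAP1 to -0.22 in all 3, and after centring PSMB7 to -0.04 and PSMD14 to -0.18. Summed cRPKM as deposited gave log2 ratios of 0.47, -0.32 and 0.15 in the 3 comparisons, against 0.05, -0.01 and 0.04 scaled.

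A filter of 5 cRPKM moved the median to -0.02 in UVC against control, against 0.05 over all 8646 genes it kept. In UVC with active photolyase against UVC the median moved to -0.04, with 17 genes lower. All genes kept had -0.08 there, with 3981 lower. No filter gave a median of -0.23 in UVC against control, against 0.05 over all 18223 genes. It gave 7 genes lower in UVC with active photolyase against UVC, against 4826 of all genes. In UVC with active photolyase against control 6 were higher, against 4107 of all genes. TMM factors were recomputed on the genes and libraries kept in each edgeR setting, and their part in these shifts was not tested. The 4 libraries of UVC against control alone gave a median of -0.10, against 0.04 over all tested genes. Leaving out each library gave medians of -0.19 to -0.10 in UVC against control, lowest without the second UVC library and highest without the second library with active photolyase, with 12 to 13 genes higher and 21 to 25 lower. In UVC with active photolyase against UVC it gave 14 to 19 higher and 8 to 13 lower.

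Deviations of same-numbered libraries had a correlation of -0.0297 between UVC and control. It was 0.126 between UVC with active photolyase and UVC, and -0.0505 between UVC with active photolyase and control. These values cannot show whether same-numbered libraries were handled together, because each group has only 2 libraries. With a replicate block the counts were 13 higher and 24 lower, 19 and 11, and 11 and 13, as without it. All 129 results compared were rated unchanged. Named genes kept their side of the threshold, called ones kept their direction, and class counts and medians stayed within set margins. With 2 libraries a group, small differences can rest on single libraries. Those of PSMB6, PSMB7, PSMD4 and PSMG1 in UVC with active photolyase against UVC did. So did those of PSMB7 and PSMD4 in UVC with active photolyase against control. In UVC against control, leaving out each library gave 0.21 to 0.28 for PSMB6, -0.35 to -0.27 for PSMB7 and 0.21 to 0.32 for PSMD4. Calls held in every setting were not counted over all tested genes, so the counts that follow have no background. Called in the same direction in all 16 settings were 12 rises and 6 falls in UVC against control, 6 and 7 in UVC with active photolyase against UVC, and 5 and 6 in UVC with active photolyase against control.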
